A study of Mus musculus with 12 samples.

Results

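The miR-34 and miR-449 family was measured in the mouse hippocampus by 8 miRNA assays, which were all the assays of the table named miR-34 or miR-449, with or without a letter or strand. The table holds 619 miRNA assays, and 335 of them gave a threshold cycle (Ct) in all 12 samples. Of the family, 7 assays did so (hsa-miR-34a, mmu-miR-34b, mmu-miR-34b-5p, mmu-miR-34b-3p, hsa-miR-34c, mmu-miR-34c# and mmu-miR-449b), and hsa-miR-449 gave a Ct in 11 samples. The prefix hsa or mmu is the species for which an assay was designed, and # marks the strand of a hairpin once taken to be the minor one.

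The study asked how loss of the P2X7 receptor, an ATP-gated ion channel of inflammatory signaling, affects hippocampal miRNAs in control mice and after status epilepticus (SE). There were 4 groups of 3 samples. The wt control samples came from C57BL/6 wild-type mice injected with vehicle into the amygdala, and the P2rx7-/- control samples from mice that lack exon 2 of P2rx7 in all cells and were injected in the same way. The post-SE samples, wt and P2rx7-/-, came from mice of the same 2 genotypes in which kainic acid (KA), an agonist of glutamate receptors, was injected into the amygdala to start SE. All mice were male, the labels give their age as 8 weeks, and all received the anticonvulsant lorazepam. The hippocampus of the injected side was taken 8 h after the injection, and hippocampi of 2 mice were pooled for each sample, so that the spread between samples is that between pools. The strain named in the labels is the same for both genotypes.

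MiR-34a is known as a miRNA that the transcription factor p53 induces, and it lowers proteins that drive the cell cycle and survival. MiR-34b and miR-34c are made from a single transcript, and the miR-449 miRNAs lie in an intron of Cdc20b, a gene of multiciliated cells. The guide strands of all these hairpins share a seed, the stretch that pairs with target mRNAs, and miR-34b, miR-34c and miR-449 are together known for a role in making motile cilia, which ependymal and choroid plexus cells of the brain carry.

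The mature sequences (RefSeq, build GRCm38.p6) are shown because they divide 5 of the 8 assays by seed, which is bases 2 to 8 and is written in capitals. The assays were matched to them by name.
mmu-miR-34a-5p: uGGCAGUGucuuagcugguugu
mmu-miR-34b-5p: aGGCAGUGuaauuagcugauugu
mmu-miR-449a-5p: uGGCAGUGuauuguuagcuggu
mmu-miR-34b-3p: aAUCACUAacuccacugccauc
mmu-miR-34c-3p: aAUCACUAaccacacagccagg

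The upper 3 sequences carry the seed GGCAGUG, and the lower 2 carry AUCACUA. Over the whole strand, seed included, mmu-miR-34a-5p and mmu-miR-449a-5p were identical at 15 of 22 positions counted from the 5′ end, and mmu-miR-34a-5p and mmu-miR-34b-5p at 11 of 22. The minor strands mmu-miR-34b-3p and mmu-miR-34c-3p were identical at 17 of 22. No gaps were allowed in these counts. Since mmu-miR-34b-5p has 23 bases and mmu-miR-34a-5p has 22, an offset after the seed lowers their count. It therefore does not rank mmu-miR-34b-5p and mmu-miR-449a-5p by likeness to mmu-miR-34a-5p. The assay hsa-miR-34a was read as mmu-miR-34a-5p (chr4:150068473-150068494, plus strand), hsa-miR-449 as mmu-miR-449a-5p (chr13:113037549-113037570, plus strand) and mmu-miR-34c# as mmu-miR-34c-3p (chr9:51103044-51103065, minus strand). The assays mmu-miR-34b-5p and mmu-miR-34b-3p read the arms at chr9:51103610-51103632 and chr9:51103574-51103595, both on the minus strand. For hsa-miR-34c and mmu-miR-449b no sequence is printed, and the name mmu-miR-34b does not say which arm it reads. On chromosome 9 the hairpins Mir34b and Mir34c lie 451 bases apart within the bounds of the genes Btg4 and Hoatz. On chromosome 13 Mir449a and Mir449c lie 1442 bases apart within Cdc20b, and Mir34a on chromosome 4 overlaps no other annotated gene.

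A Ct is the cycle at which a qPCR reaction passes its threshold, so more miRNA gives a lower Ct, and a step of 1 cycle stands for roughly a 2-fold amount. The level used below is the mean Ct of a sample over the 335 assays minus the Ct of the assay. It is on a log2 scale, is higher where there was more miRNA, and can be compared between samples for 1 assay. It cannot be compared between assays, since these amplify with their own efficiency. In bulk tissue, fewer cells of a type and less miRNA per cell cannot be told apart.

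One sample stood apart. The rank correlation of wt control replicate 1 with the other samples, over the 335 assays, lay between 0.660 and 0.737, against 0.872 to 0.989 among the others. In it 72 assays lay more than 2 cycles from their median over the remaining samples, against 3 to 28 in the others, and 24.1% of the miRNA assays had no Ct, against 13.1% to 23.1%. The comparisons with wt control samples are therefore also given without it. The repeated wells of the control RNA snoRNA135 had a median SD of 0.281 cycles within a sample, with a range of 0.197 to 3.63 over the samples. Among markers of hippocampal cells, miR-128a and miR-137, known from neurons, and miR-219 and miR-338-3p, known from oligodendrocytes, had a Ct in all 12 samples. Other neuron assays were incomplete, with a Ct in 11 samples for mmu-miR-124a, 10 for hsa-miR-138 and 4 for hsa-miR-9. The level of mmu-miR-137 was 1.14 in wt control replicate 1 and 3.71 to 5.70 in the other samples. Of the assays found for neurons 2 of 5 were complete, and for oligodendrocytes 2 of 2. For microglia and myeloid cells these were 4 of 6, and for endothelial and mural cells 1 of 3. None of these had an adjusted p below 0.05 in any comparison, nor had any of the 335 assays. By the fold-change rule below, 3 of the 4 myeloid assays were up-regulated in P2rx7-/- against wt post-SE samples, and 1 or 2 in the other comparisons. Of the 2 oligodendrocyte assays 1 was up-regulated in each comparison, and 1 was down-regulated between control groups. For neurons and mural cells 1 assay each was up-regulated in both comparisons with wt control. That rule called 17.0% to 23.3% of all assays up-regulated and 4.48% to 15.5% down-regulated.

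MiR-34a was very low in the sample that stood apart. The level of hsa-miR-34a was -5.76, 1.55 and 1.41 in wt control replicates 1, 2 and 3, and 3.51, 1.90 and 1.72 in P2rx7-/- control samples. Post-SE it was 1.03, 1.21 and 1.86 in wt and 2.75, 1.59 and 1.40 in P2rx7-/- samples. A single sample was far below all others: wt control replicate 1 had a Ct of 24.8, the other samples had 15.6 to 18.2, and its level was 6.79 below the next lowest. In this sample 10 of the 335 assays, hsa-miR-34a among them, lay as far or farther below their median over the other samples. The SD of miR-34a within groups was 2.19, at percentile 92.5 of the 335 assays, and 0.652 without that sample. The median SD of the 335 assays was 0.636.

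MiR-34b and miR-34c, the products of the chromosome 9 cluster, gave values of another shape. The level of mmu-miR-34b-3p, the assay of the family with the lowest mean Ct (13.9), was 5.95, 5.04 and 4.98 in wt control samples and 3.71, 5.25 and 5.67 in P2rx7-/- control samples. It was 3.45, 4.31 and 5.37 in wt post-SE samples and 4.83, 5.27 and 5.47 in P2rx7-/- post-SE samples. The guide strand of the same hairpin, mmu-miR-34b-5p, gave levels of -1.67, -2.01 and -1.86 in wt control samples and -3.22, -1.74 and -1.62 in P2rx7-/- control samples. Its levels post-SE were -3.69, -3.25 and -1.83 in wt and -2.06, -2.11 and -1.65 in P2rx7-/- samples. In both assays the same 3 samples were lowest, namely wt post-SE replicates 1 and 2 and P2rx7-/- control replicate 1.

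The remaining assays named for this cluster were mmu-miR-34b, mmu-miR-34c# and hsa-miR-34c. The level of mmu-miR-34b was -3.67, -4.10 and -3.43 in wt control, -5.46, -4.24 and -3.07 in P2rx7-/- control, -6.61, -5.77 and -3.07 in wt post-SE and -4.59, -3.74 and -3.76 in P2rx7-/- post-SE samples. The level of mmu-miR-34c# was 3.49, 2.77 and 2.99 in wt control, 1.14, 2.93 and 3.27 in P2rx7-/- control, 1.07, 1.88 and 3.86 in wt post-SE and 3.71, 2.35 and 4.05 in P2rx7-/- post-SE samples. Here too the 3 lowest samples were wt post-SE replicates 1 and 2 and P2rx7-/- control replicate 1, while wt post-SE replicate 3 was among the high samples. The level of hsa-miR-34c was 1.90, 1.64 and 1.69 in wt control, -0.61, 1.61 and -1.62 in P2rx7-/- control, -0.35, 0.24 and 2.06 in wt post-SE and 1.15, 1.48 and 0.51 in P2rx7-/- post-SE samples. In hsa-miR-34c the order was different, since P2rx7-/- control replicate 3 was the lowest of all samples and replicate 1 of that group the next.

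Of the miR-449 assays, mmu-miR-449b had the highest mean Ct of the family (25.2), near the limit of 28 cycles above which the table lists no Ct. Its level was -5.13, -6.37 and -5.02 in wt control samples, -7.21, -6.51 and -7.52 in P2rx7-/- control samples, -7.63, -6.15 and -6.14 in wt post-SE samples and -6.82, -5.75 and -5.44 in P2rx7-/- post-SE samples. All wt control samples were above all P2rx7-/- control samples. The assay hsa-miR-449 had no Ct in wt control replicate 1 and gave -3.54 and -1.56 in wt control replicates 2 and 3. Its level was -4.68, -3.34 and -3.91 in P2rx7-/- control, -4.47, -2.33 and -1.57 in wt post-SE and -3.14, -3.70 and -1.64 in P2rx7-/- post-SE samples, so that its groups overlapped throughout.

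**Figure D1:**
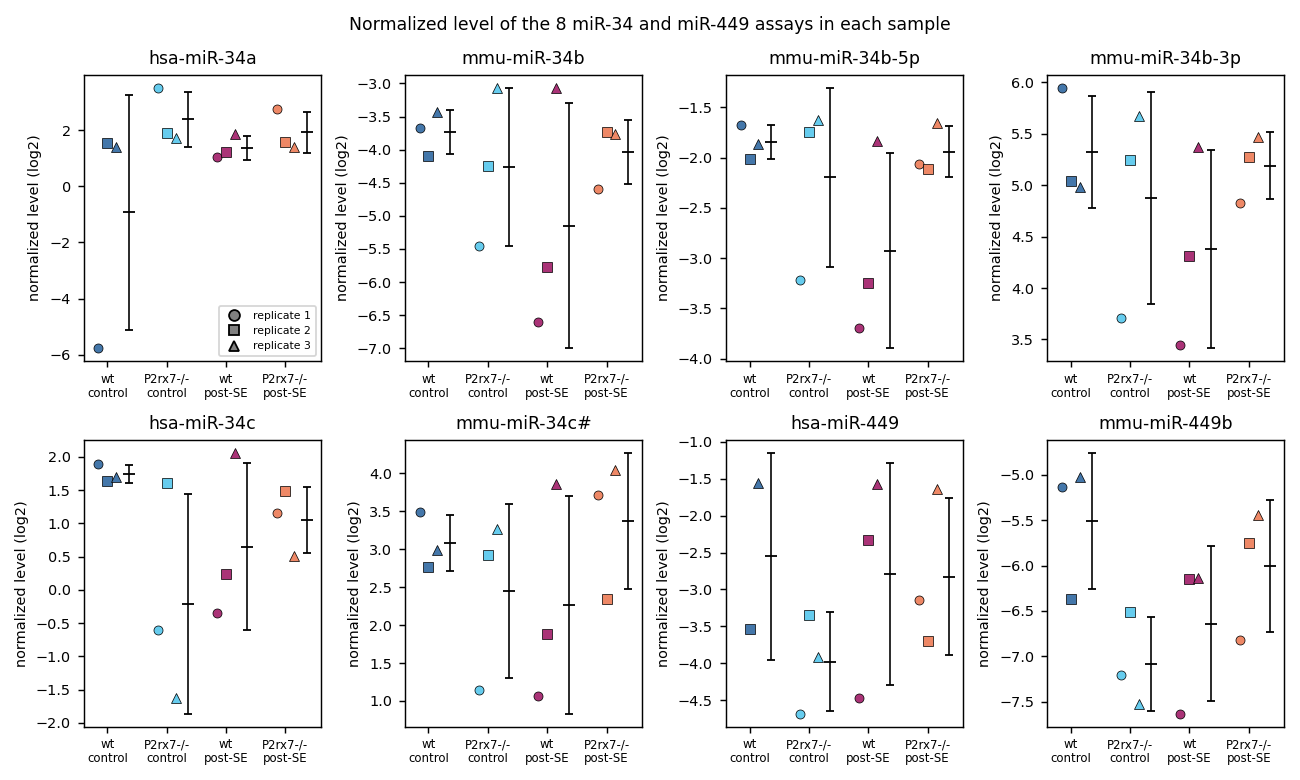
Normalized level (log2) of each of the 8 assays in each of the 12 samples. Circles, squares and triangles are replicates 1, 2 and 3, and the bar beside each group is its mean ± SD (n = 3, or 2 for wt control in hsa-miR-449). In hsa-miR-34a the wt control circle lies at -5.76, 6.79 below the next sample, and in the miR-34b assays and mmu-miR-34c# both lowest wt post-SE samples and 1 P2rx7-/- control sample lie below the other 9.

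Fold changes (FC) were then formed against the average level of the reference group, and an assay counts as up-regulated where the mean of its 3 FCs is above 1.5 and as down-regulated where it is below 0.6. The spread between samples does not enter this rule. The difference of each assay was therefore also tested with limma over all 335 assays, with p-values adjusted by the Benjamini-Hochberg method. No assay of the family had an adjusted p below 0.05 in any comparison, nor had any of the 335 assays (0.0% of them). At an unadjusted p below 0.05 in limma, 2 of the 7 complete assays passed between control groups, beside 5.97% of all assays. In the other 3 comparisons 0 passed. The shares of all assays there were 3.88% in wt post-SE against wt control, 2.99% in P2rx7-/- post-SE against P2rx7-/- control and 1.19% between the post-SE groups. The 4 comparisons share samples, so their values are not independent of each other. Nor are all family assays, since the miR-34b assays and mmu-miR-34c# varied together over the samples.

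In control mice, the P2rx7-/- genotype went with lower miR-34c and miR-449b and with a higher miR-34a by the FC rule, which left the miR-34b assays and mmu-miR-34c# between its thresholds. The FC of mmu-miR-449b was 0.308, 0.499 and 0.247 in the 3 P2rx7-/- control samples, with an average of 0.351 ± 0.132 (SD, n = 3). Its difference in limma was -1.57 on the log2 scale (SE 0.57, 95% interval -2.83 to -0.31), with an unadjusted p of 0.0193 and an adjusted p of 0.615. The FC of hsa-miR-34c was 0.195, 0.910 and 0.0969, with an average of 0.401 ± 0.444 (SD, n = 3), a limma difference of -1.95 (SE 0.80, 95% interval -3.74 to -0.17) and an adjusted p of 0.615. One of its 3 samples was thus close to the wt control level. Without wt control replicate 1 the differences were -1.37 for mmu-miR-449b and -1.86 for hsa-miR-34c, and that of hsa-miR-34c was -1.24 without P2rx7-/- control replicate 3 and -2.86, with an average FC of 0.146, without P2rx7-/- control replicate 2.

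The average FC of hsa-miR-34a was 11.7 ± 8.71 (SD, n = 3) in this comparison, and its limma difference was 3.31 (SE 1.60, 95% interval -0.24 to 6.86, adjusted p = 0.615). Without wt control replicate 1 the average FC was 2.22 and the difference 0.91. The miR-34a call therefore remained without that sample, at a fraction of its size. The levels then compared were 3.51, 1.90 and 1.72 in P2rx7-/- control replicates 1, 2 and 3 and 1.55 and 1.41 in wt control replicates 2 and 3. Most of the remaining difference thus lay in P2rx7-/- control replicate 1. The average FC was 0.864 for mmu-miR-34b, 0.877 for mmu-miR-34b-5p, 0.852 for mmu-miR-34b-3p and 0.767 for mmu-miR-34c#, and the limma difference of each of these 4 turned positive, with values of 0.03 to 0.17, when P2rx7-/- control replicate 1 was left out. The differences of these 4 lay between -0.48 and -0.11 without wt control replicate 1. With snoRNA135 as normalizer, the differences of mmu-miR-34b-3p and mmu-miR-34b-5p were 0.02 and 0.11 in place of -0.44 and -0.35. For hsa-miR-449, with 2 wt control samples, the average FC was 0.399 ± 0.174 (SD, n = 3) and was 0.796 without wt control replicate 3 and 0.201 without wt control replicate 2. Its limma difference was -1.42 (SE 0.99, adjusted p = 0.785).

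Of the 7 complete assays, 1 was up-regulated and 2 were down-regulated between control groups, where the rule called 21.2% of all assays up-regulated and 15.5% down-regulated. Without P2rx7-/- control replicate 3, mmu-miR-34b and mmu-miR-34c# were also down-regulated, which made 4 of 7. In 3 of the 7, namely hsa-miR-34a, hsa-miR-34c and mmu-miR-449b, the samples of both groups did not overlap, against 14.0% of all assays. The gaps were small. The nearest wt and P2rx7-/- control levels were 1.55 and 1.72 in hsa-miR-34a, 1.64 and 1.61 in hsa-miR-34c and -6.37 and -6.51 in mmu-miR-449b. Each pair was closer than the median SD of repeated snoRNA135 wells (0.281 cycles). Groups of 3 that do not overlap have p = 0.1 in a two-sided exact permutation test by construction, the smallest value it can give. An unadjusted limma p below 0.05 was found for 2 of the 7, against 5.97% of all assays. The median difference of the 7 was -0.52, beside -0.02 over all 335 assays.

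After SE in wt mice, the mean level of all family assays other than hsa-miR-34a was below that in wt control samples, by 0.24 to 1.42 on the log2 scale, while wt post-SE replicate 3 was within or above the range of the wt control samples in each of them. The FC of mmu-miR-34b-5p was 0.278, 0.378 and 1.01 in the 3 wt post-SE samples, with an average of 0.556 ± 0.398 (SD, n = 3) and a limma difference of -1.08 (SE 0.54, 95% interval -2.27 to 0.12, adjusted p = 0.664). The FC of mmu-miR-449b was 0.230, 0.639 and 0.642, with an average of 0.504 ± 0.237 (SD, n = 3) and a difference of -1.13 (SE 0.57, adjusted p = 0.664). These were the 2 down-regulated assays of 7, and the rule called 12.5% of all assays down-regulated. With the control RNA snoRNA135 as normalizer 1 assay was down-regulated, and with snoRNA202 5 were, beside 1 up-regulated assay under each. The FC of mmu-miR-34b was 0.136, 0.243 and 1.58, so that its average of 0.653 stood above the threshold because of wt post-SE replicate 3. Without that replicate 6 of the 7 assays were down-regulated, and without wt post-SE replicate 1 none was. Without wt control replicate 1 the differences of the 6 complete assays other than hsa-miR-34a lay between -1.41 and -0.63.

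The average FC of hsa-miR-34a was 5.08 ± 1.61 (SD, n = 3) post-SE in wt mice, which made it the only up-regulated assay of the 7, where the rule called 23.3% of all assays up-regulated. Its 3 FCs were 3.90, 4.43 and 6.91, whereas wt control replicates 2 and 3 themselves had FCs of 5.60 and 5.07 and replicate 1 had 0.0352. Without wt control replicate 1 the average FC was 0.940 and the limma difference went from 2.30 (SE 1.60, adjusted p = 0.671) to -0.14. The up-regulation of miR-34a in wt mice thus rested on 1 control sample. The SE of miR-34a was 1.60 in all comparisons, since all groups share 1 estimate of the spread in this fit. In no family assay did the wt post-SE and wt control samples separate without overlap, against 11.0% of all assays. The median difference of the 7 assays was -1.08, beside -0.09 over all assays, and 6 of 7 were below 0, as were 58.8% of all assays. For hsa-miR-449 the average FC was 1.13 (limma difference -0.24, SE 0.99, adjusted p = 0.989). It was 0.569 without wt control replicate 2, 2.26 without wt control replicate 3 and 0.714 without wt post-SE replicate 3.

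After SE in P2rx7-/- mice, hsa-miR-34c, mmu-miR-34c# and mmu-miR-449b were up-regulated by the FC rule against P2rx7-/- control samples. The average FC of hsa-miR-34c was 2.48 ± 0.792 (SD, n = 3), with a limma difference of 1.26 (SE 0.80, adjusted p = 0.998). It was 4.66 without P2rx7-/- control replicate 2 and 1.53 without P2rx7-/- control replicate 3. The P2rx7-/- control samples themselves had FCs of 0.756, 3.52 and 0.375 in this assay, with an average of 1.55, which is also above the threshold. The average FC of mmu-miR-449b was 2.28 ± 0.985 (SD, n = 3), with a difference of 1.08 (SE 0.57, 95% interval -0.18 to 2.34, adjusted p = 0.998). The average FC of mmu-miR-34c# was 2.12 ± 1.08 (SD, n = 3), and 1.35 without P2rx7-/- control replicate 1.

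The rule called 17.9% of all assays up-regulated and 7.16% down-regulated in this comparison, and of the family 3 and 0 of 7. Without P2rx7-/- control replicate 3, mmu-miR-34b and mmu-miR-34b-3p were also up-regulated, which made 5 of 7. No assay of the family separated both groups without overlap (6.57% of all assays). The average FC of mmu-miR-34b, mmu-miR-34b-5p and mmu-miR-34b-3p lay between 1.21 and 1.26, and that of hsa-miR-34a was 0.793. Without P2rx7-/- control replicate 1 the differences of these 4 changed sign, those of the 3 miR-34b assays to values of -0.38 to -0.27 and that of hsa-miR-34a to 0.10. For hsa-miR-449 the average FC was 2.68 ± 2.07 (SD, n = 3), with single FCs of 1.79, 1.21 and 5.04 (limma difference 1.15, SE 0.88, adjusted p = 0.998), and the average was 1.51 without P2rx7-/- post-SE replicate 3. The median difference of the 7 complete assays was 0.31, beside 0.02 over all assays.

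Post-SE, 6 of the 7 assays were up-regulated in P2rx7-/- against wt samples, where the rule called 17.0% of all assays, and none was down-regulated (4.48% of all assays). The exception was hsa-miR-34c, with an average FC of 1.37 ± 0.437 (SD, n = 3). The miR-34b assays and mmu-miR-34c#, which are among the 6, are named for 1 cluster and varied together. The 6 are therefore not independent measurements. The average FC was 2.40 ± 1.22 (SD, n = 3) in mmu-miR-34c#, 2.26 in mmu-miR-34b, 2.00 in mmu-miR-34b-5p, 1.78 in mmu-miR-34b-3p, 1.68 in mmu-miR-449b and 1.60 in hsa-miR-34a. Without wt post-SE replicate 3 it was 4.15 in mmu-miR-34c#, 4.64 in mmu-miR-34b and 2.23 in hsa-miR-34c, and without wt post-SE replicate 1 it was 1.56, 1.34 and 0.946 in these assays. The smallest unadjusted p of the family was 0.0958, for mmu-miR-34b-5p (difference 0.98, SE 0.54, adjusted p = 0.999 in limma). No assay of the family separated the groups (5.67% of all assays), since wt post-SE replicate 3 lay within or above the P2rx7-/- post-SE samples in each of them. In mmu-miR-34b, for instance, the wt post-SE samples themselves had FCs of 0.364, 0.650 and 4.22, with an average of 1.75. Without wt post-SE replicate 1, only 2 of the 7 assays were up-regulated. The median difference was 0.81, beside -0.01 over all assays. For hsa-miR-449 the average FC was 1.18, and leaving out wt post-SE replicate 1 gave 0.651, wt post-SE replicate 3 gave 1.80 and P2rx7-/- post-SE replicate 3 gave 0.663. Its limma difference of -0.04 turned to 0.20 with snoRNA135 or snoRNA202 as normalizer.

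Whether SE went with another difference in P2rx7-/- than in wt mice was tested as the interaction of genotype and treatment, the difference post-SE minus control in P2rx7-/- mice less that in wt mice. For mmu-miR-449b it was 2.21 on the log2 scale (SE 0.80, 95% interval 0.43 to 3.99), with an unadjusted p of 0.0199 and an adjusted p of 0.851 in limma. In this assay the level was 1.13 lower post-SE in wt mice and 1.08 higher post-SE in P2rx7-/- mice. For hsa-miR-34c the interaction was 2.35 (SE 1.14, adjusted p = 0.851), for the miR-34b assays and mmu-miR-34c# between 1.25 and 1.73, for hsa-miR-449 1.39 and for hsa-miR-34a -2.76. It was 2.01 for mmu-miR-449b and -0.36 for hsa-miR-34a without wt control replicate 1. An unadjusted p below 0.05 was reached by 1 of the 7 assays and by 2.39% of all assays. The median interaction of the 7 was 1.65, beside 0.05 over all assays.

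**Figure D2:**
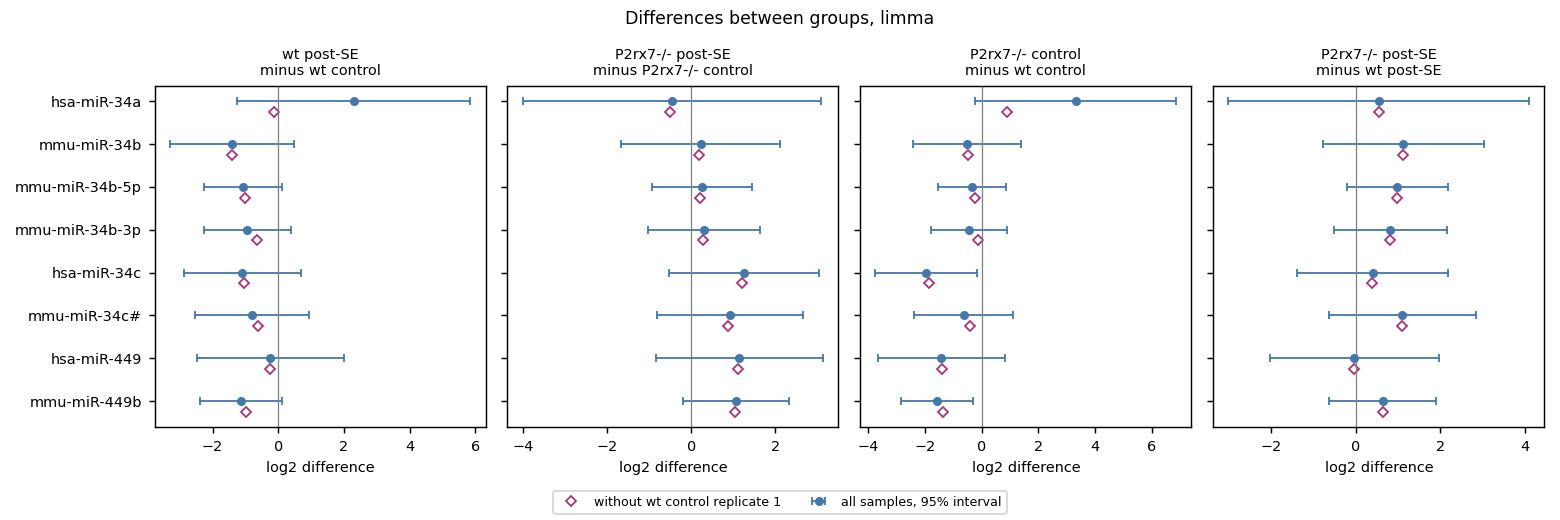
Difference between groups (log2, limma) for each of the 8 assays in the 4 comparisons. Points with bars are the estimates over all samples with their 95% intervals, and open diamonds are the estimates without wt control replicate 1. All intervals include 0 except those of hsa-miR-34c and mmu-miR-449b between the control groups, and hsa-miR-34a moves from 2.30 to -0.14 in wt post-SE minus wt control.

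The level of the miR-34b assays and mmu-miR-34c# varied together from sample to sample, and most of that lay in 3 samples. In mmu-miR-34b-5p the 3 low samples were 1.11 or more below the other 9, and in mmu-miR-34b, mmu-miR-34b-3p and mmu-miR-34c# they were 0.87, 0.52 and 0.47 or more below them. Since these samples lie apart, correlations are given over the other 9 samples, as a description chosen after the values were seen. There r was 0.73 (rho 0.73) between the arms mmu-miR-34b-3p and mmu-miR-34b-5p, 0.52 between mmu-miR-34b and mmu-miR-34b-3p, and 0.47 between mmu-miR-34b and mmu-miR-34b-5p. Between mmu-miR-34c# and the 3 miR-34b assays it was 0.12 to 0.48. All levels of a sample share its normalizer and its cDNA. Assays without a Ct made up 23.1% and 16.2% of the miRNA assays in wt post-SE replicates 1 and 2 and 21.2% in P2rx7-/- control replicate 1. The mean Ct of these samples over the 335 assays was 19.3, 18.9 and 19.2, where wt post-SE replicate 1 had the highest mean Ct of the 12 samples and P2rx7-/- control replicate 1 the next. The part of such differences between samples in the low levels was not tested. In wt control replicate 1, with a share of 24.1% and a mean Ct of 19.1, mmu-miR-34b-3p was at its highest.

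The difference in level between both arms of the miR-34b hairpin varied little. It averaged 7.17 with an SD of 0.255 over the 12 samples and ranged from 6.83 to 7.62, whereas the range of the level itself was 2.07 in mmu-miR-34b-5p and 2.50 in mmu-miR-34b-3p. Its absolute size includes the efficiency of each assay, so only its spread is described. For the miR-34c hairpin the difference between mmu-miR-34c# and hsa-miR-34c had an SD of 1.16 and a median of 1.62. It was 4.90 in P2rx7-/- control replicate 3 and 3.54 in P2rx7-/- post-SE replicate 3, where hsa-miR-34c was low and mmu-miR-34c# was not, and 0.87 to 2.56 in the other 10 samples. The low level of hsa-miR-34c in P2rx7-/- control replicate 3, which contributes to its down-regulation between control groups, was thus not accompanied by a low level of the other strand.

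**Figure D3:**
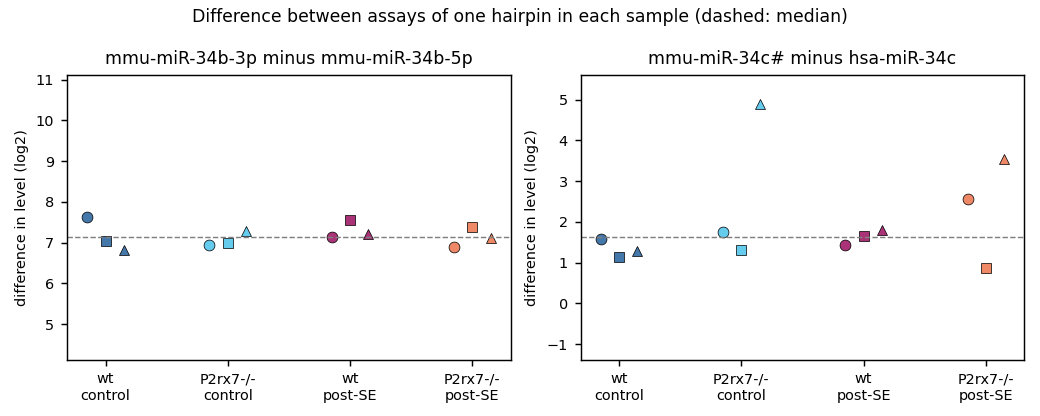
Difference in level (log2) between the assays of 1 hairpin in each sample, for mmu-miR-34b-3p minus mmu-miR-34b-5p (left) and mmu-miR-34c# minus hsa-miR-34c (right). Circles, squares and triangles are replicates 1, 2 and 3, the dashed line is the median, and both axes span the same number of cycles. The left values stay within 6.83 to 7.62, while on the right 2 samples stand at 4.90 and 3.54 above a median of 1.62.

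Both miR-449 assays were compared over the 11 samples with a Ct in each. The levels of mmu-miR-449b and hsa-miR-449 gave r = 0.80 (permutation p = 0.00406, adjusted over the 28 pairs of the family p = 0.0162) and rho = 0.78 (permutation p = 0.00622, adjusted p = 0.0348), and r was 0.68 without the 2 samples farthest from the median and 0.80 for the deviations from the group means. Both r and rho of mmu-miR-449b with hsa-miR-34c were 0.71 and 0.70 over 12 samples (permutation p = 0.0108 and 0.0144, adjusted p = 0.0377 and 0.0577), and r was 0.52 without the 2 farthest samples, both of them P2rx7-/- control samples, and 0.49 for the deviations from the group means. The level of hsa-miR-34a had an r of -0.49 to -0.18 with the other 7 assays, and of -0.36 to -0.04 without wt control replicate 1. None of these 7 relations passed the adjusted permutation p of 0.05. With the 2 samples farthest from the median left out, r ranged from -0.13 (mmu-miR-449b) to 0.62 (mmu-miR-34c#), so the sign of the relation between miR-34a and most of the family depended on those samples.

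The non-family assays most like mmu-miR-34b-3p were sought by r over the 12 samples among 328 assays. The nearest was rno-miR-204# (r = 0.90), followed by hsa-miR-30d# (0.81), hsa-miR-20a (0.78), rno-miR-381 (0.77), hsa-miR-17 (0.75) and rno-miR-339-3p (0.74). The level of rno-miR-204# was 1.63, 1.46 and 1.47 in wt control, 0.27, 1.98 and 1.97 in P2rx7-/- control, -0.25, 0.68 and 2.32 in wt post-SE and 1.61, 2.16 and 2.41 in P2rx7-/- post-SE samples. Its 3 lowest samples were again wt post-SE replicates 1 and 2 and P2rx7-/- control replicate 1, and over the other 9 samples its r with mmu-miR-34b-3p was 0.34. Without wt control replicate 1, r was 0.97 (rho 0.87) over the other 11 samples. Without wt post-SE replicate 1 and P2rx7-/- control replicate 1, r was 0.68 over 10 samples. The likeness was found by a search, and its size depended on which samples were left out.

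MiR-204 and miR-211 are known to be abundant in the choroid plexus epithelium, a multiciliated tissue beside the hippocampus. Of these 2 markers only hsa-miR-204 was matched to an assay, and it had a Ct in 10 samples. Its level was 3.32, 8.13 and 8.03 in wt control, 5.98, 8.39 and 7.84 in P2rx7-/- control, 7.99 and 7.89 in wt post-SE replicates 1 and 2 and 8.40 and 8.07 in P2rx7-/- post-SE replicates 2 and 3. Of the 3 samples with low miR-34b, hsa-miR-204 was low in P2rx7-/- control replicate 1 and not in the wt post-SE samples. Of the epithelial miRNAs of the miR-200 family, 7 assays were found and 5 were complete, and the mean level of these 5 ranged from 0.04 to 0.16 in wt control, -0.59 to 0.54 in P2rx7-/- control, -0.07 to 0.74 in wt post-SE and -0.23 to 0.66 in P2rx7-/- post-SE samples. The part of such cells in the levels of the family was not tested.

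**Figure D4:**
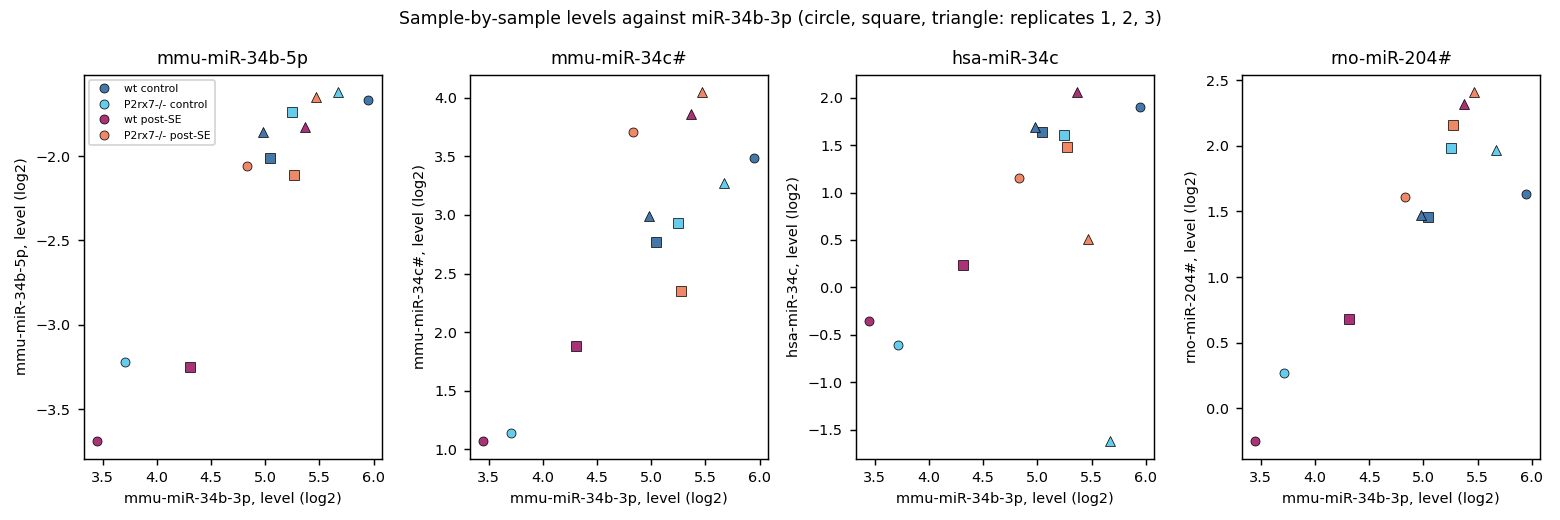
Level (log2) of mmu-miR-34b-5p, mmu-miR-34c#, hsa-miR-34c and rno-miR-204# against that of mmu-miR-34b-3p, 1 point per sample, colored by group (circles, squares and triangles are replicates 1, 2 and 3). In mmu-miR-34b-5p, mmu-miR-34c# and rno-miR-204# the same 3 samples lie at the lower left, and in hsa-miR-34c P2rx7-/- control replicate 3 lies alone at the lower right with a level of -1.62.

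The assays most like hsa-miR-34a over the 12 samples were mmu-miR-376a (r = 0.99), mmu-miR-380-5p (0.96), mmu-miR-376b (0.95), hsa-miR-433 (0.93), hsa-miR-185 (0.93) and hsa-miR-26a (0.92). Without wt control replicate 1 these values were 0.87, 0.43, 0.43, 0.24, 0.30 and -0.37, so that only mmu-miR-376a stayed among the 6 nearest. The others were then hsa-miR-15b (0.86), hsa-miR-671-3p (0.84), mmu-miR-489 (0.81), hsa-miR-125a-3p (0.80) and mmu-miR-1954 (0.77). These values depended on P2rx7-/- control replicate 1, where the level was 8.13 in hsa-miR-15b, 7.67 in mmu-miR-489 and 7.98 in mmu-miR-1954. With that sample left out too, r was 0.62, 0.49, 0.31, 0.23 and 0.05 in the same order. For mmu-miR-376a it was then 0.78.

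Other miRNAs linked to p53 were set beside the family. The list comprised 12 miRNAs (among them miR-107, miR-145, miR-192, miR-194 and the miR-15/16 and miR-29 families), for which 12 assays were found and 8 were complete. By the FC rule, 1 of 8 was up-regulated post-SE in wt mice (23.3% of all assays), namely hsa-miR-145, with an average FC of 6.90 ± 8.41 (SD, n = 3). It was 3.39 without wt control replicate 1 and 2.05 without wt post-SE replicate 1. In P2rx7-/- mice 2 of 8 were up-regulated post-SE (17.9% of all assays), and the same 2, hsa-miR-107 and hsa-miR-15a, were up-regulated in P2rx7-/- against wt post-SE samples (17.0%). Against P2rx7-/- control samples their average FCs were 1.51 and 4.23, and 0.882 and 0.895 without P2rx7-/- post-SE replicate 1. Against wt post-SE samples these were 1.52 and 3.14, and 0.882 and 0.660 without that replicate. None of the 8 had an adjusted p below 0.05 in limma.

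Between control groups 1 of the 8 was up-regulated and 2 were down-regulated, beside 21.2% and 15.5% of all assays. For hsa-miR-145 the average FC was 2.65 ± 0.672 (SD, n = 3), and 1.36 without wt control replicate 1, which is below the threshold. The down-regulated assays were hsa-miR-29b, with an average FC of 0.567 ± 0.249 (SD, n = 3), and hsa-miR-29c, with 0.481 ± 0.284 (SD, n = 3). Without wt control replicate 1 these were 0.654, which is no longer below 0.6, and 0.5997, and without P2rx7-/- control replicate 3 they were 0.711 and 0.645. The samples of both control groups did not overlap in these 2 assays (14.0% of all assays), and the limma adjusted p was 0.615 for each. The values of the list without single samples were added after the data were seen.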

How the data were processed

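TaqMan OpenArray reads of hippocampal miRNA (from 1 µg of RNA) were analyzed for 12 samples, 3 per group, each pooled from 2 mice. Groups and replicate numbers were taken from the labels. The authors deposited Ct values without normalization (analyzed as a score), listed only below 28 cycles. The lowest miRNA Ct listed was 10.06. Empty values also occurred in assays of high level, such as hsa-miR-9, with a Ct in 4 samples and levels of 6.88 to 9.21. The reason for an empty Ct was not tested. The authors also deposited fold changes (a ratio for each assay), which took an empty Ct as 0. Each sample was shifted there by 1 constant, relative to wt control replicate 1. The shift was near, but not equal to, the difference in mean Ct over detected miRNA assays. For wt control replicate 2 it was -0.248, beside -0.151. P2rx7-/- control replicate 2 carried the shift of replicate 1 of its group (0.0945), beside -0.00238 from its own mean Ct. The deposited fold changes were used only as an alternative. The software behind the Ct calls is not given in the sources used here. All columns were assigned to a sample.

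Each sample's mean Ct over the 335 assays detected in all 12 samples was subtracted (ΔCt), and FC was computed from ΔΔCt against the average of the reference group. The thresholds of 1.5 and 0.6 are those of the methods of the study. limma 3.58.1 (R 4.3.3) was fitted to -ΔCt over all 12 samples, with p-values adjusted over 335 assays. For hsa-miR-449, the fit covered 478 assays with at least 2 Ct values per group, and wt control replicate 1 dropped out for that assay. Other computations used matplotlib 3.10.9, scipy 1.17.1, pandas 2.3.3 and numpy 2.4.6 under Python 3.11.15. Permutation p-values of correlations used 100000 resamples. The fit was also run on simulated data with independent noise in each assay and no sample that stands apart. That run cannot show how the fit behaves with a sample such as wt control replicate 1. Alternatives covered the normalizer, the Ct limit, the mean of the FCs, the fit, the replicate block and leaving out each sample.

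The family members, the p53-linked list, the markers and the rule for likeness (the 6 assays with the highest r) were chosen with earlier results of these data known. Each assay was read in 1 well per sample, so there is no technical error for a single assay. Sequences and coordinates came from RefSeq tables of GRCm38.p6, by name.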

Additional observations from a re-analysis of the deposited data

How the results depend on the processing

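No family assay passed an adjusted p of 0.05 under any alternative, and the adjusted p of single assays ranged from 0.367 to 1.00. At an unadjusted p below 0.05, the methods' t-test passed 1 assay of the family between control groups (mmu-miR-449b) and 0 in the other comparisons. The number down-regulated post-SE in wt mice (2 of 7) was 1 with the mean of all assays with a Ct as normalizer, 1 with snoRNA135, 5 with snoRNA202, 4 with the median Ct and 6 with the geometric mean of FCs. With a Ct limit of 26, 1 assay in place of 2 was down-regulated between control groups, as mmu-miR-449b then had empty values. Against the normalizer used, snoRNA135 moved the median of all assays by 0.46 and snoRNA202 by -0.24 between control groups, and in wt post-SE minus wt control by 0.20 and -0.39. Signs turned for mmu-miR-34b-3p (0.0151) and mmu-miR-34b-5p (0.11) between control groups with snoRNA135. For hsa-miR-449 in P2rx7-/- post-SE minus wt post-SE they turned to 0.20 with snoRNA135, 0.20 with snoRNA202 and 0.11 with the median. The cause was not tested.

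Most same-numbered samples were not paired (4 of 18 pairs had a correlation above 0.1, from -0.227 to 0.277). The highest values were those of replicate 3 outside wt control. They were 0.277 between wt post-SE and P2rx7-/- control, 0.271 between both P2rx7-/- groups and 0.251 between both post-SE groups. With wt control replicate 3 the values were -0.034 to 0.094. The level of mmu-miR-34b-3p rose from replicate 1 to replicate 3 in every group except wt control, where it fell. What these replicates share was not tested. A fit with the replicate block changed no call, kept 0 assays below the threshold and turned hsa-miR-449 post-SE in wt mice to 0.21.

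Leaving out 1 sample at a time, the number up-regulated ranged from 0 to 1 post-SE in wt mice (0 without wt control replicate 1), from 2 to 5 post-SE in P2rx7-/- mice (5 without P2rx7-/- control replicate 3), stayed at 1 between control groups and ranged from 2 to 7 between post-SE groups (2 without wt post-SE replicate 1). The number down-regulated ranged from 0 to 6, from 0 to 1 (1 without P2rx7-/- post-SE replicate 1), from 2 to 4 (4 without P2rx7-/- control replicate 3) and stayed at 0. For wt post-SE minus wt control wt post-SE replicates 1, 2 and 3, when left out, gave counts of 0, 1 and 6. The differences that changed sign ranged as follows. In wt post-SE minus wt control, hsa-miR-34a ranged from -0.14 to 3.54 and hsa-miR-449 from -0.85 to 0.61. In P2rx7-/- post-SE minus P2rx7-/- control, hsa-miR-34a ranged from -0.87 to 0.10, mmu-miR-34b from -0.38 to 0.83, mmu-miR-34b-3p from -0.28 to 0.71 and mmu-miR-34b-5p from -0.27 to 0.55. In P2rx7-/- control minus wt control, mmu-miR-34b ranged from -1.11 to 0.084, mmu-miR-34b-3p from -0.83 to 0.15, mmu-miR-34b-5p from -0.63 to 0.17 and mmu-miR-34c# from -1.04 to 0.025. In P2rx7-/- post-SE minus wt post-SE, hsa-miR-34c ranged from -0.13 to 1.10 and hsa-miR-449 from -0.90 to 0.57. The precision is limited by 3 pools per group and 1 well per assay.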
